A study of Mus musculus with 30 samples.

Results

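The LIF receptor and Stat3 signalling genes described here are Lifr, Il6st, Jak1, Stat3, Socs3 and Gbx2, which were chosen by name and are 6 of the 22477 genes in the RNA-seq table. They were followed through 15 conditions of mouse secondary iPSCs, a line of induced pluripotent cells with OSKM transgenes (Oct4, Sox2, Klf4 and Myc) under doxycycline control, a GFP reporter at the Nanog locus and a constitutive nuclear RFP. In 7 conditions the cells were taken 0, 24, 36, 48, 60, 72 and 96 h after withdrawal of 2i/LIF, where 2i stands for a pair of kinase inhibitors that hold mouse pluripotent cells undifferentiated and LIF for leukaemia inhibitory factor. In the other 8 conditions cells differentiated for 0, 24, 48 or 96 h were re-seeded into serum/LIF for 48 h, either without doxycycline (–dox) or with 2 µg/ml of it to switch on OSKM (+dox). Each condition has 2 replicates, 30 samples in all, and the authors combined them, so that a gene has a single FPKM value in a condition. No spread, test or p-value can therefore be given for any difference, and whether a difference exceeds the variation between replicates is not known from these values. All conditions share the same transgenic cells, so every –dox value comes from cells that carry the uninduced transgenes. The study's methods describe upkeep in serum/LIF on feeders of mouse embryonic fibroblasts (MEFs), at least 24 h in 2i/LIF and at least 18 h on gelatin before withdrawal. For the colony assay they describe re-seeding onto MEFs, and they do not say on what the cells for RNA-seq grew.

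LIF signals through a receptor made of Lifr and the shared co-receptor gp130, which is encoded by Il6st. The receptor has no enzyme activity of its own and relies on bound Janus kinases, chiefly Jak1, which phosphorylate the transcription factor Stat3. Stat3 then enters the nucleus and switches on target genes, among them Socs3, whose product binds gp130 and Jak1 and shuts the pathway off, and Gbx2, a homeobox factor that can hold mouse pluripotent cells undifferentiated. In mouse embryonic stem cells this pathway is known for sustaining self-renewal, and 2i can do so without it. FPKM, the number of fragments scaled to transcript length and to sequencing depth, measures RNA level per length of transcript, so neither the phosphorylation of Stat3 nor the amount of any protein is seen in these data.

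Stat3 is known to bind a palindrome of the form TTCNNNGAA, and the 300-base windows around the transcription start of the 2 target genes and of Stat3 itself are shown for that reason. Each window runs from 250 bases before the start to 50 bases after it, 5′ to 3′ on the gene's strand, and comes from RefSeq on GRCm38.p6, the same build as mm10. Capitals mark TTCNNNGAA in Socs3 and the form with a spacer of 1 more base, TTCNNNNGAA, in Gbx2. Both forms read the same on either strand, and they cannot overlap each other at the same TTC. The minus-strand windows lie at chr11:117969317-117969616 for Socs3, chr1:89931127-89931426 for Gbx2 and chr11:100939491-100939790 for Stat3.
Socs3: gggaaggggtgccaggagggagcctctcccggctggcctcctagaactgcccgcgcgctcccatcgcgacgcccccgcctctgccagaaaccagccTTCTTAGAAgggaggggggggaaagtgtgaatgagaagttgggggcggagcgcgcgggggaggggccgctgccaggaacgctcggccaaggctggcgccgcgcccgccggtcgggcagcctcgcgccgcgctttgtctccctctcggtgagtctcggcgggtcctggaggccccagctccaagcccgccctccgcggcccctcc
Gbx2: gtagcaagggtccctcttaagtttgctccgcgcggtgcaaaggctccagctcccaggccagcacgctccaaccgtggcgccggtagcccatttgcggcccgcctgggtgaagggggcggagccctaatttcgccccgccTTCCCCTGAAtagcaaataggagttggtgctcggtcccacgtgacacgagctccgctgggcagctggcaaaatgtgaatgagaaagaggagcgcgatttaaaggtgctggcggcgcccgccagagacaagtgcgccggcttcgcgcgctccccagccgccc
Stat3: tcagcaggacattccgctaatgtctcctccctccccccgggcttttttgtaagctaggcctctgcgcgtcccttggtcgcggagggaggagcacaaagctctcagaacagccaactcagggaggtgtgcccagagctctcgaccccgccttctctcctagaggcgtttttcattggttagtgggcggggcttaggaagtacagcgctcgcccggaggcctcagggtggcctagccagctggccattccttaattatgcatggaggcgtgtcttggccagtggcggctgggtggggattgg
In Socs3 the match is TTCTTAGAA, which begins 154 bases before the start. In Gbx2 the match is TTCCCCTGAA, which begins 111 bases before the start. Neither form is present in the Stat3 window. Of the 6 genes, Socs3 is the 1 with TTCNNNGAA in such a window, a form found in 8.30% of all 32851 promoter windows in the RefSeq table, and TTCNNNNGAA is found in 6.95%. Among 11 other genes known as LIF or Stat3 targets that had a window, 2 held TTCNNNGAA, namely Icam1 and Sbno2. A match of letters is a description of the sequence and says nothing on whether Stat3 was bound there in these cells.

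On mm10, in the Gencode annotation, Lifr lies on chromosome 15 from 7090614 to 7197489 and Il6st on chromosome 13 from 112464070 to 112510086, both on the plus strand. The other 4 genes are on the minus strand. Jak1 lies on chromosome 4 from 101152367 to 101265282, Stat3 on chromosome 11 from 100885098 to 100939540, Socs3 on chromosome 11 from 117966079 to 117970047, and Gbx2 on chromosome 1 from 89927956 to 89931179. Exons of Jak1 overlap those of Raver2 on the opposite strand, exons of Stat3 overlap those of Stat5a, and exons of Gbx2 overlap the non-coding gene D130058E05Rik. The sources used here do not say whether the counting used strand, so reads from the overlapping stretches of these pairs cannot be told apart. Stat5a itself was low, between 0.594 and 4.58 FPKM over the 15 conditions. The levels of Raver2 and D130058E05Rik are not given here, so what their reads could add to Jak1 and Gbx2 is not known.

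The cells were checked against markers of the cell types the dishes could hold. The 10 pluripotent markers summed to 6278 FPKM at 0 h and each of them reached 1 FPKM there, with Dppa5a the most abundant at 4620 FPKM. After 48 h their sum was 1819 FPKM and after 96 h it was 513.2 FPKM, and in cells differentiated for 96 h and then re-seeded it was 134.8 FPKM –dox and 205.7 FPKM +dox. The markers thus marked the 0 h cells as pluripotent and were lowest in the cells re-seeded after 96 h. OSKM includes Pou5f1 and Sox2, which are in this list, and reads from the transgenes cannot be told apart from those of the endogenous genes in +dox cells.

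The 18 fibroblast markers, genes such as the collagens Col1a1 and Col1a2 that feeder cells express, set 2 conditions apart. They summed to 957.2 FPKM at 0 h, where 16 of 18 reached 1 FPKM, none was at 0 and Col1a1 led at 228.7 FPKM. At 24 h they summed to 93.5 FPKM, with 13 of 18 at 1 FPKM or more and Col1a1 at 21.0 FPKM. From 36 to 96 h the sum was between 36.5 and 56.0 FPKM. In the cells re-seeded –dox it was 24.2, 37.5, 47.7 and 192.5 FPKM after 0, 24, 48 and 96 h, and +dox it was between 29.2 and 42.4 FPKM. The second high value, in the 96 h –dox cells, was led by Col1a2 at 86.0 FPKM, with 13 of 18 markers at 1 FPKM or more and none at 0. In these cells the 8 mesoderm and endoderm markers also summed to 15.5 FPKM, against 5.90 FPKM before re-seeding. Of the 4 that reached 1 FPKM in that comparison, 3 were higher and none was lower, against 12.4% and 11.2% of genes tested. Which cells carried the fibroblast markers was not tested. Counts that use the 0 h or the 96 h –dox cells are therefore also given without them below, where another comparison allowed it.

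Over withdrawal, 5 of the 6 genes were counted as changed between some pair of the 7 timepoints, that is, they differed by at least 2-fold with the higher value at least 1 FPKM. Of the 14091 genes that reached 1 FPKM at some timepoint, 60.7% did so, so the count itself does not set these genes apart. Jak1 was the exception, with a ratio of highest to lowest value of 1.96, from 17.1 FPKM at 96 h and 8.74 FPKM at 48 h. After rescaling to a common sum this ratio passed 2-fold, since summed FPKM was 652188 at 96 h and 766067 at 48 h. As deposited, the ratio of highest to lowest value was 12.3 for Lifr, 8.97 for Socs3, 5.50 for Stat3, 5.22 for Gbx2 and 5.20 for Il6st. For Socs3, Stat3 and Il6st the highest value was that of the 0 h cells, which had the highest fibroblast sum. At 24 h these 3 genes stood at 19.6, 23.7 and 13.5 FPKM, against lowest values of 4.85, 5.58 and 5.27 FPKM at 60 h. At 96 h, 5 of 6 were lower than at 0 h and none was higher, against 16.4% of genes tested that were lower and 16.8% that were higher. Against 24 h in place of the 0 h cells with their high fibroblast sum, 4 of 6 were lower at 96 h and none was higher. Among genes tested the shares were 16.3% and 20.5%, and Stat3 was at -0.89 and under 2-fold after rescaling to a common sum. Between 24 and 96 h 8 of 14 fibroblast markers were lower and 1 higher, and all 10 pluripotent markers were lower. Their part in the 4 ratios was not tested. In bulk RNA, fewer cells that express a gene and less RNA per cell cannot be told apart.

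**Figure D1:**
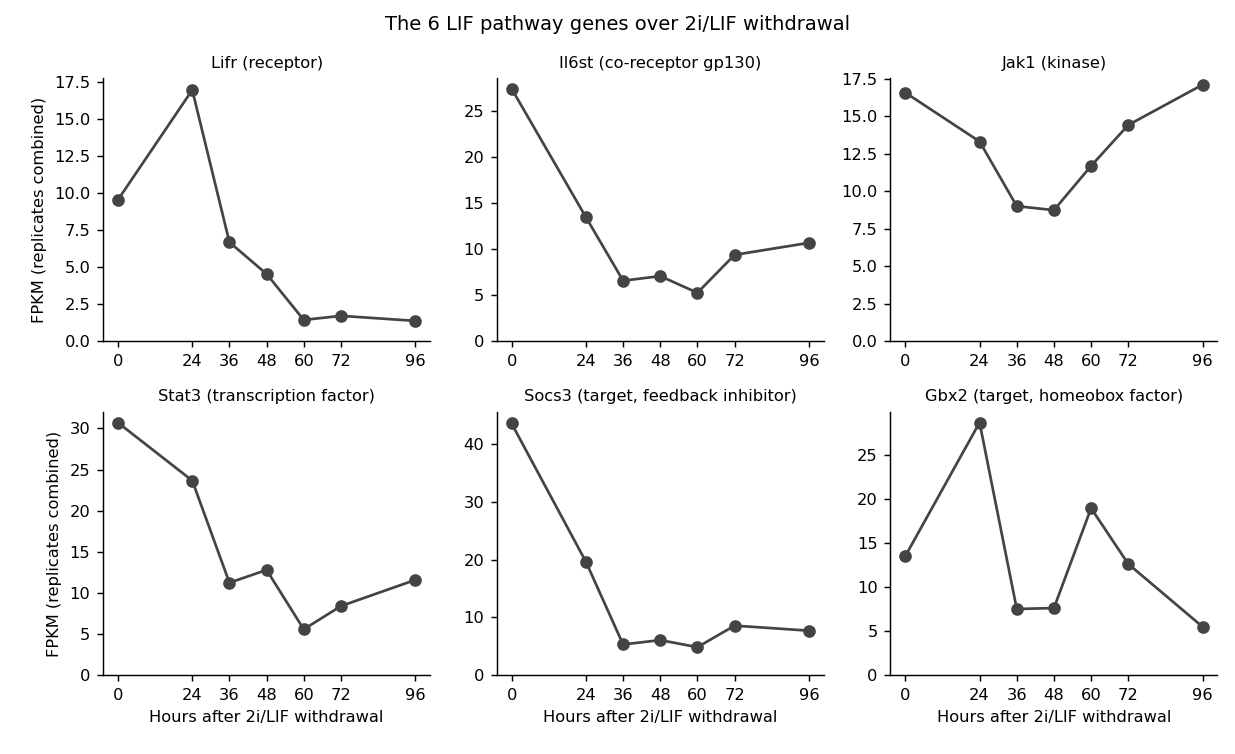
Level of each of the 6 genes (FPKM, linear axis from 0) against hours after 2i/LIF withdrawal. Each point is 1 deposited value that combines 2 replicates, so no error bars can be drawn. Lifr and Gbx2 were highest at 24 h, Il6st, Stat3 and Socs3 at 0 h, and Jak1 at 96 h.

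Lifr, the subunit that binds LIF, stood at 9.55 FPKM at 0 h and at 17.0 FPKM after 24 h, then at 6.69 after 36 h and 4.55 after 48 h, and lastly at 1.45 after 60 h, 1.72 after 72 h and 1.38 FPKM after 96 h. It was at its highest a day after LIF was taken away and then lower at each of the next 3 timepoints, and it stayed near 1 to 2 FPKM from 60 h on. The log2 ratio of 96 h to 0 h was -2.79. That of 96 h to 24 h, which leaves out the 0 h cells with their high fibroblast sum, was -3.62.

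Il6st, the signal-transducing chain that all cytokines of the IL-6 family share, stood at 27.4 FPKM at 0 h and at 13.5 FPKM after 24 h, then at 6.58 after 36 h and 7.08 after 48 h, and lastly at 5.27 after 60 h, 9.39 after 72 h and 10.7 FPKM after 96 h. Its level at 60 h was 19.2% of that at 0 h and its level at 96 h 39.0%. It was high where the fibroblast markers were high, and its log2 ratio of 96 h to 0 h was -1.36, while that of 96 h to 24 h was -0.33 and was not counted as changed. Between 24 and 36 h, with the fibroblast sums at 93.5 and 46.4 FPKM, its log2 ratio was -1.03. The part of fibroblast RNA in the Il6st values was not tested.

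Jak1, the kinase bound to gp130, stood at 16.6 FPKM at 0 h and at 13.3 FPKM after 24 h, then at 9.0 after 36 h and 8.74 after 48 h, and lastly at 11.7 after 60 h, 14.4 after 72 h and 17.1 FPKM after 96 h. It dipped to 52.7% of its 0 h level at 48 h and was at 103.2% of it at 96 h. No step between neighbouring timepoints reached 2-fold.

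Stat3 stood at 30.7 FPKM at 0 h and at 23.7 FPKM after 24 h, then at 11.2 after 36 h and 12.8 after 48 h, and lastly at 5.58 after 60 h, 8.41 after 72 h and 11.6 FPKM after 96 h. It came down in 2 steps, between 24 and 36 h and between 48 and 60 h, each of more than 2-fold, with log2 ratios of -1.07 and -1.20. From its lowest value at 60 h it was higher at 72 h and again at 96 h, when it had 37.7% of the 0 h level.

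Socs3, the feedback inhibitor and a direct readout of the pathway in many cell types, stood at 43.5 FPKM at 0 h and at 19.6 FPKM after 24 h, then at 5.32 after 36 h and 6.07 after 48 h, and lastly at 4.85 after 60 h, 8.58 after 72 h and 7.70 FPKM after 96 h. It reached its low range by 36 h, at 12.2% of the 0 h level, and all later values lay between 4.85 and 8.58 FPKM. The log2 ratio of 24 h to 0 h was -1.15 and that of 36 h to 24 h was -1.88. The second of these steps does not use the 0 h value, but the fibroblast sum was lower there too, at 93.5 FPKM after 24 h and 46.4 FPKM after 36 h. Its part in the Socs3 values was not tested.

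Gbx2, the homeobox target, followed another course and stood at 13.5 FPKM at 0 h and at 28.7 FPKM after 24 h, then at 7.53 after 36 h and 7.63 after 48 h, and lastly at 19.0 after 60 h, 12.6 after 72 h and 5.50 FPKM after 96 h. It had 2 peaks, at 24 h and at 60 h. The second coincided with the lowest values of Stat3, Socs3 and Il6st over withdrawal. Between 48 and 60 h the log2 ratio of Gbx2 was 1.31, while that of Socs3 was -0.32 and within 2-fold.

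Taken step by step, the change was concentrated between 24 and 36 h, when 5 of 6 genes were lower, against 6.28% of genes tested. Jak1 was at a log2 ratio of -0.56, and Il6st, at -1.03, was close to the threshold. In that step 9 of 13 fibroblast markers that reached 1 FPKM and 4 of 10 pluripotent markers were lower, and none was higher. Between 0 and 24 h, Gbx2 was higher, against 8.64% of genes, and Il6st and Socs3 were lower, against 14.3%, with Il6st at -0.90 and under 2-fold after rescaling to a common sum. None of the 6 passed 2-fold between 36 and 48 h, against 4.79% of genes, or between 60 and 72 h, against 5.24%, although Il6st and Socs3 reached log2 ratios of 1.02 and 1.01 in the second interval when the conditions were rescaled to a common sum. Between 48 and 60 h Gbx2 was higher (4.97% of genes) and Lifr and Stat3 were lower (4.27%), and between 72 and 96 h Gbx2 was lower (5.01%). Of the fibroblast markers, 15 of 16 were lower between 0 and 24 h and 6 of 11 between 48 and 60 h, with 1 higher each time. Between 72 and 96 h 6 of 10 pluripotent markers were lower. The part of either cell type in these steps was not tested.

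The order of levels changed with the time in culture. At 0 h Socs3 was highest, followed by Stat3, Il6st, Jak1, Gbx2 and Lifr. At 96 h Jak1 was highest, followed by Stat3, Il6st, Socs3, Gbx2 and Lifr. With no replicate values, it is not known which neighbours in these orders differ beyond their spread, and Stat3 at 11.6 FPKM and Il6st at 10.7 FPKM at 96 h lay close together.

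When cells were moved to serum/LIF, the 6 genes differed among themselves and with the time the cells had differentiated. Over the 4 differentiation times, 11 of 24 pairs of gene and hour were counted as changed between the cells before re-seeding and the –dox cells 48 h later, against 24.5% of all such pairs. Of these, 7 were higher in serum/LIF (13.6% of all pairs) and 4 were lower (10.9%). For cells differentiated for 24, 48 or 96 h this put LIF back, and the medium, the 48 h in culture and possibly the substrate changed with it and cannot be told apart. The 0 h cells had LIF before re-seeding as well, and for them 2i was taken away and serum added. Without the 0 h pairs, 10 of 18 were changed, against 25.3% of all such pairs. Within the 24 h and 48 h cells, which leaves out both conditions with high fibroblast sums, 5 of 12 pairs were changed, against 26.1% of all pairs there. Fibroblast markers still moved in the 24 h comparison, where 9 of 13 were lower and 2 higher, with sums of 93.5 and 37.5 FPKM. In the 48 h comparison 4 of 12 were higher and 4 lower. Their part in these pairs was not tested.

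**Figure D2:**
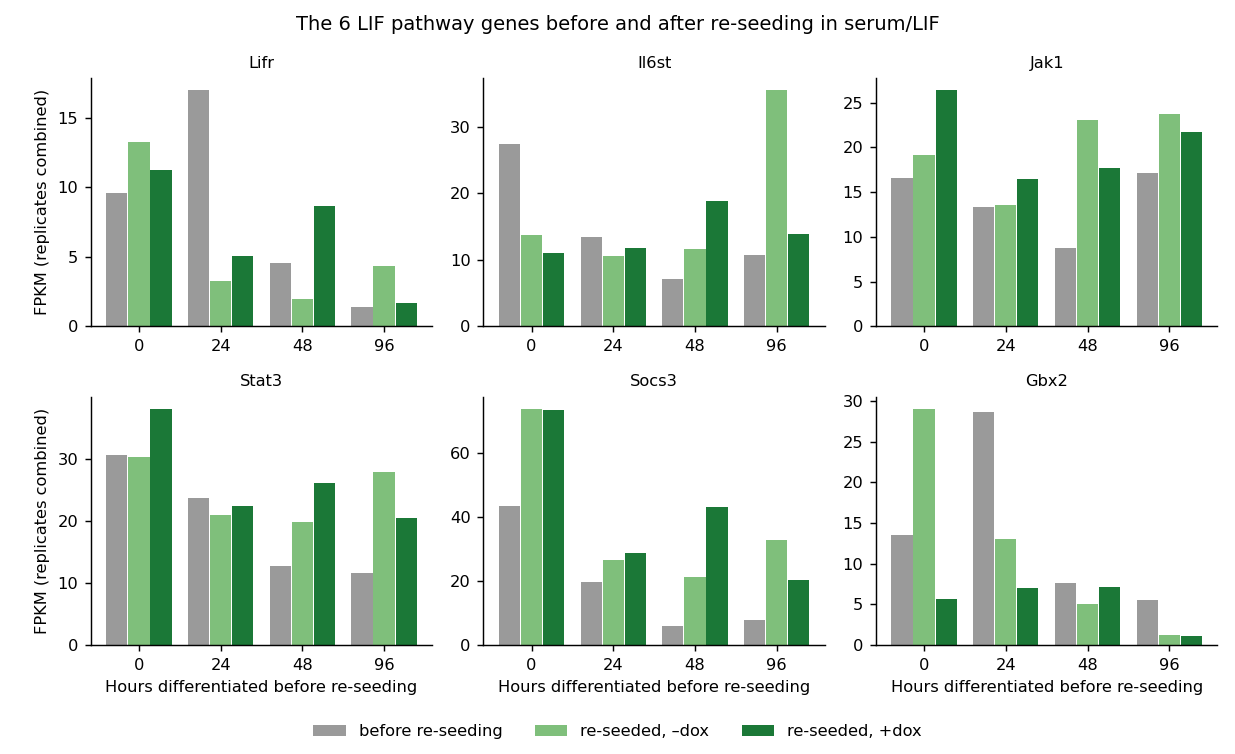
FPKM of each gene (linear axis from 0) against the hours differentiated, before re-seeding (grey), and after 48 h in serum/LIF –dox (light green) or +dox (dark green). Each bar is 1 value that combines 2 replicates. Socs3 was above its level before re-seeding at all 4 hours, and Gbx2 was near 1 FPKM in both sets of cells re-seeded after 96 h.

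Socs3 had the higher value after re-seeding at every hour, as did Jak1. It stood at 73.6 FPKM in the –dox cells re-seeded at 0 h, at 26.4 after 24 h, at 21.3 after 48 h and at 32.6 after 96 h. The log2 ratios to the cells before re-seeding were 0.76, 0.43, 1.81 and 2.08, of which the last 2 passed 2-fold. The highest Socs3 value of all 15 conditions thus lay in the 0 h –dox cells, where the fibroblast sum was the lowest of all at 24.2 FPKM.

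Stat3 stood at 30.3 FPKM in the –dox cells re-seeded at 0 h, at 21.0 after 24 h, at 19.9 after 48 h and at 27.9 after 96 h. Its log2 ratios to the cells before re-seeding were -0.02, -0.17, 0.64 and 1.27, so only the 96 h ratio passed 2-fold. All 4 values lay within 1.52-fold of each other and above every withdrawal value from 36 h on.

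Lifr behaved otherwise and stood at 13.3 FPKM in the –dox cells re-seeded at 0 h, at 3.23 after 24 h, at 1.98 after 48 h and at 4.33 after 96 h. Its log2 ratios were 0.48, -2.39, -1.20 and 1.65, so that it was lower after re-seeding of 24 h and 48 h cells and higher after re-seeding of 96 h cells. The 24 h ratio starts from the peak that Lifr had at 24 h of withdrawal. Compared with the re-seeded 0 h cells, Lifr was lower after each differentiation, with log2 ratios of -2.04, -2.75 and -1.62.

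Il6st stood at 13.8 FPKM in the –dox cells re-seeded at 0 h, at 10.6 after 24 h, at 11.7 after 48 h and at 35.5 after 96 h. The last is its highest value of the 15 conditions, with a log2 ratio to the 96 h cells of 1.73, and it coincides with the second highest fibroblast sum. In the first 3 of these, with fibroblast sums between 24.2 and 47.7 FPKM, Il6st lay within 1.30-fold. Jak1 stood at 19.2, 13.6, 23.1 and 23.8 FPKM after 0, 24, 48 and 96 h, and its 48 h value was 2.64-fold above that of the cells before re-seeding.

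**Figure D3:**
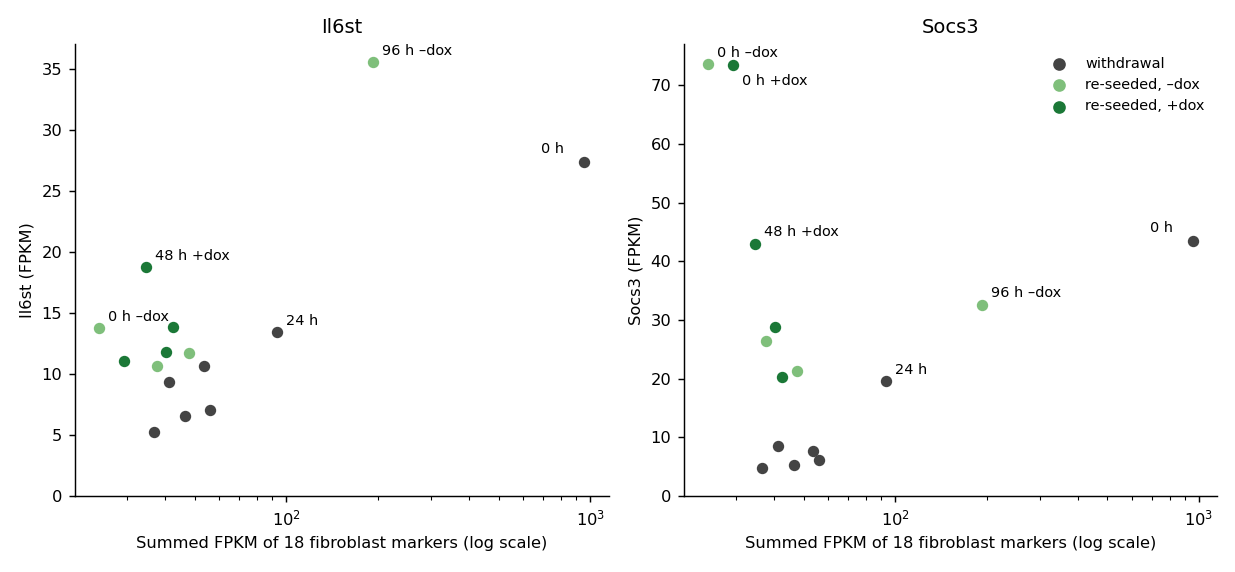
Il6st (left) and Socs3 (right) in FPKM against the summed FPKM of 18 fibroblast markers (log axis), 1 point per condition, in grey for withdrawal, light green for –dox and dark green for +dox. The 2 conditions with the highest Il6st, 96 h –dox at 35.5 and 0 h at 27.4 FPKM, also have the highest fibroblast sums, and Socs3 is highest at the left edge, in the cells re-seeded at 0 h.

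Over the 15 conditions Pearson's r between Il6st and the fibroblast sum, on log2(FPKM + 1), was 0.63 and Spearman's rho 0.22. Without the 2 conditions whose Il6st level lay farthest from its median, r was -0.10. In this paragraph the 2 farthest are always set by the level of the gene compared with the sum, not by the sum. Over the 15 conditions the relation thus rests on the 0 h and 96 h –dox values. Within the 7 timepoints of withdrawal, where the sum and Il6st were both highest at 0 h, r was 0.91 and rho 0.82, and r was 0.67 without the 2 farthest. For Socs3, r over the 15 conditions was 0.12 and rho -0.27, while over the 7 timepoints r was 0.92 and rho 0.75, and r was 0.27 without the 2 farthest. For Stat3 the values over the 15 conditions were 0.25 and -0.06, and over the 7 timepoints 0.84 and 1.00, with an r of 0.94 without the 2 farthest. The lower levels of Il6st, Stat3 and Socs3 over withdrawal thus came with lower fibroblast sums, and the part of fibroblast RNA in them was not tested. These coefficients describe values that share cells and processing, and no p is given.

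Gbx2 stood at 29.0 FPKM in the –dox cells re-seeded at 0 h, at 13.0 after 24 h, at 5.02 after 48 h and at 1.23 after 96 h. The order follows the time of differentiation, and the highest value was 23.5-fold above the lowest. Its log2 ratios to the cells before re-seeding were 1.10, -1.14, -0.60 and -2.16. Of the 2 target genes, then, Socs3 was higher in serum/LIF at 48 and 96 h while Gbx2 was not, and at 96 h the log2 ratios were 2.08 and -2.16.

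By hour, 1 of 6 genes was higher in the 0 h cells after re-seeding and none was lower, against 12% and 10.1% of genes tested. In the 24 h cells none was higher and 2 were lower, against 14.9% and 10.6%, and Gbx2, 1 of the 2, was at -0.99 and under 2-fold after rescaling to a common sum. In the 48 h cells 2 were higher and 1 was lower, against 15.3% and 11.5%, and Lifr, the lower 1, was at -0.90 and under 2-fold with 1 FPKM added to both values. In the 96 h cells 4 were higher and 1 was lower, against 12.4% and 11.2%. The 4 higher in the 96 h cells were Lifr, Il6st, Stat3 and Socs3, and the 96 h –dox cells are the ones with the fibroblast sum of 192.5 FPKM, against 53.8 FPKM before re-seeding. How much of these ratios comes with the fibroblast markers was not tested.

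Among the –dox cells alone, all in the same medium for the same 48 h, Lifr, Socs3 and Gbx2 were lower after 24 h of differentiation than after 0 h (3 of 6, against 11.4% of genes tested that were lower) and again after 48 h (3 of 6, against 17.4%). After 96 h the same 3 genes were lower (against 21.7% of genes) and Il6st was higher (against 21.5%). For Socs3 the log2 ratios to the re-seeded 0 h cells were -1.48, -1.79 and -1.17, and for Gbx2 they were -1.15, -2.53 and -4.56. Stat3 and Jak1 stayed within 2-fold in all 3 comparisons. Of the 10 pluripotent markers, 6 were lower after 24 h, and all 10 after 48 h and after 96 h, when their sum was 134.8 FPKM against 6877.5 FPKM in the re-seeded 0 h cells. Of the fibroblast markers that reached 1 FPKM, 7 of 11 were higher after 48 h and 11 of 14 after 96 h, when their sum was 192.5 FPKM against 24.2 FPKM. The part of either cell type in these ratios was not tested. The rough guide to depth described under processing also differed, at 99.3 and 92.0 steps after 0 and 24 h against 30.6 and 33.4 after 48 and 96 h. Its part in the ratios was not tested.

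With OSKM, Lifr differed at 48 and 96 h, Gbx2 at 0 h, Socs3 at 48 h and Il6st at 96 h, and Jak1 and Stat3 stayed within 2-fold at all 4 hours. Between +dox and –dox cells of the same hour, 5 of 24 pairs of gene and hour were counted as changed, against 11.6% of all pairs. Of the 5, 2 were higher (4.93% of all pairs) and 3 were lower (6.63%). When every condition was rescaled to the same sum, as in TPM, the split was 1 higher and 3 lower for these genes and moved from 42.6% to 29.2% higher among all genes, since that rescaling lowers every +dox to –dox log2 ratio by between 0.09 and 0.23.

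In the 0 h cells only Gbx2 passed 2-fold, with 29.0 FPKM –dox and 5.68 FPKM +dox, a log2 ratio of -2.35 (5.61% of genes tested were lower). Socs3, the other target, was 73.6 and 73.5 FPKM, and Stat3 was 30.3 and 38.1 FPKM. Neither gene passed 2-fold. In the 24 h cells none of the 6 passed 2-fold, against 6.27% of genes, and Gbx2 came closest with 13.0 FPKM –dox and 7.05 FPKM +dox. The log2 ratio of Gbx2 there was -0.89, and the –dox values of the 2 hours differed by 2.22-fold.

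The 48 h cells held the 2 pairs that were higher with OSKM, against 6.56% of genes tested. Lifr was 1.98 FPKM –dox and 8.63 FPKM +dox, a log2 ratio of 2.13, and the +dox value was also above the 4.55 FPKM of the 48 h cells before re-seeding. Socs3 was 21.3 FPKM –dox and 43.0 FPKM +dox, a log2 ratio of 1.01 that lies just past 2-fold and was 0.92 after rescaling to a common sum. Il6st was 11.7 and 18.8 FPKM and Stat3 19.9 and 26.2 FPKM, both within 2-fold, and 5 of the 6 genes had the higher value +dox. The sum of the pluripotent markers was 1719 FPKM –dox and 3355 FPKM +dox in these cells, and the fibroblast sums were 47.7 and 34.5 FPKM.

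In the 96 h cells all 6 genes had the lower value +dox, and 2 passed 2-fold, against 11.1% of genes tested that were lower. Lifr was 4.33 FPKM –dox and 1.67 FPKM +dox, and Il6st was 35.5 and 13.9 FPKM, with log2 ratios of -1.37 and -1.36. With 1 FPKM added to both values, that of Lifr was -0.996 and under 2-fold. Socs3 was 32.6 and 20.3 FPKM, and Gbx2 1.23 and 1.14 FPKM. The fibroblast sums were 192.5 FPKM –dox and 42.4 FPKM +dox, so these markers moved with both calls, and their part in them was not tested. Without the 0 h and 96 h –dox conditions, 3 of 18 pairs were changed by dox, against 9.5% of all pairs there.

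**Figure D4:**
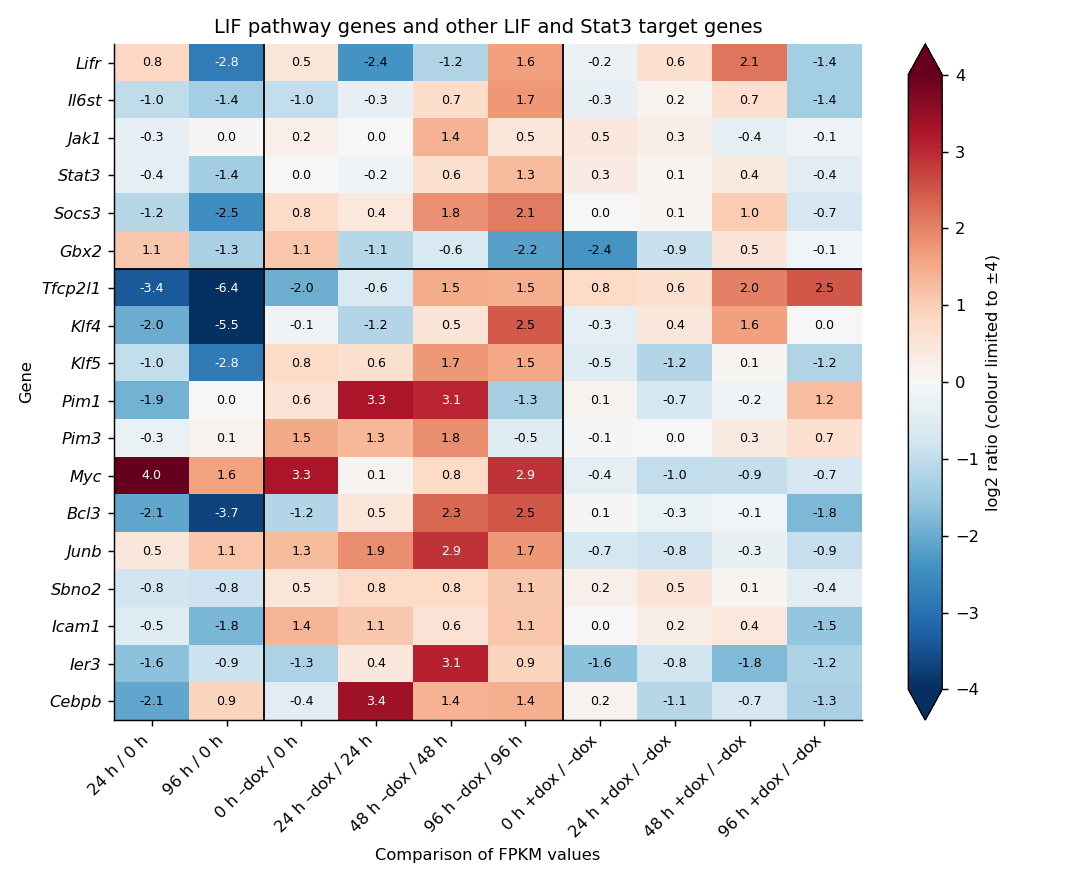
Log2 ratios of FPKM for the 6 genes (upper block) and 12 other LIF and Stat3 target genes (lower block), with red for a higher value in the condition named first. Pramel7, also among the targets counted in the text, is not drawn. The columns give 24 h and 96 h of withdrawal against 0 h, the return to serum/LIF –dox at 4 hours, and +dox against –dox at the same hours, and the number in each cell is the ratio. Socs3 has positive ratios in all 4 columns of the return, and Tfcp2l1 has positive ratios in all 4 dox columns.

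The other genes of the pathway were taken as 6 lists, with 59 of 60 genes in the table and 56 that reached 1 FPKM at 0 or 96 h. Between 0 and 96 h of withdrawal, 9 of these 56 were higher, 13 lower and 34 neither, against 16.8% higher and 16.4% lower among all genes tested. Between 24 and 96 h, which leaves out the 0 h cells with their high fibroblast sum, 13 of 52 were higher and 8 lower, against 20.5% and 16.3%. On return to serum/LIF, 73 of 212 pairs of gene and hour that reached 1 FPKM were counted as changed, 53 higher and 20 lower. With OSKM, 30 of 212 were, 8 higher and 22 lower. Among all pairs, 13.6% were higher and 10.9% lower on return, and 4.93% were higher and 6.63% lower with OSKM. Both sets of comparisons share the –dox cells.

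Among the 8 ligands, 6 reached 1 FPKM at 0 or 96 h, of which 2 were higher at 96 h and 1 lower, with a median log2 ratio of 0.68. Against 24 h, 3 of 5 were higher and none was lower. For the counts of this and the other lists, the shares of all genes were 16.8% higher and 16.4% lower against 0 h, and 20.5% and 16.3% against 24 h. Lif itself stood at 3.84 FPKM at 0 h, 2.13 after 24 h and 5.71 after 96 h, within 2-fold from start to end. The oncostatin M gene Osm went from 8.70 FPKM at 0 h to 0.829 after 24 h and 0.0193 after 96 h.

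The specific receptors that pair with gp130 moved apart. Of the 5 in the list, 4 reached 1 FPKM, with 2 higher and 2 lower at 96 h and a median log2 ratio of -1.73. Against 24 h, where 2 of the 5 reached 1 FPKM, 1 was higher and none was lower, with a median of 2.32. Cntfr, the receptor for ciliary neurotrophic factor, was 1.63 FPKM at 0 h, 3.23 after 48 h, 10.5 after 60 h, 21.5 after 72 h and 50.3 after 96 h of withdrawal, so it was highest in the cells in which Lifr was lowest. Il6ra went from 5.08 to 0.162 FPKM and the oncostatin M receptor Osmr from 4.53 to 0.136 FPKM between 0 and 96 h, and both were below 1 FPKM by 24 h, as the fibroblast sum went from 957.2 to 93.5 FPKM. In the 96 h –dox cells, with the second highest fibroblast sum, Osmr was 1.04 FPKM and Il6ra 2.06 FPKM. Il6ra did not follow that sum throughout. In re-seeded 0 h cells, with sums of 24.2 FPKM –dox and 29.2 FPKM +dox, Il6ra was 1.296 FPKM –dox. With dox it was above its 96 h –dox value, while Osmr stayed below 1 FPKM in both. The part of fibroblast RNA in these values was not tested. Il11ra1, the receptor for IL-11, was 13.5 FPKM at 96 h and 27.7 FPKM in the 96 h –dox cells. With OSKM in the 48 h cells Cntfr was 4.05 FPKM against 28.1 FPKM –dox.

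Of the 9 other Jak kinases and Stats, 1 was higher and 2 were lower at 96 h than at 0 h, with a median log2 ratio of -0.29, and against 24 h 3 were higher and 1 was lower. Jak3 was 23.1 FPKM at 0 h, 9.29 after 24 h, 4.29 after 36 h and 1.54 after 96 h, and re-seeded 0 h cells held 16.8 FPKM –dox. The fibroblast sums of these 0 h cells were 957.2 FPKM before and 24.2 FPKM after re-seeding. Jak2, another kinase that gp130 can use, was between 1.12 and 6.31 FPKM over withdrawal and 19.2 FPKM in the 96 h –dox cells.

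The 14 inhibitors of Jak and Stat signalling other than Socs3 had 1 higher, 1 lower and 12 neither at 96 h and a median log2 ratio of -0.03. Socs2, which acts mainly on growth hormone signalling, was between 28.6 and 53.7 FPKM over withdrawal, and Socs1 between 5.05 and 8.30 FPKM, so neither followed the course of Socs3. In the –dox cells re-seeded after 96 h Socs2 was 5.97 FPKM, with a log2 ratio to the cells before re-seeding of -2.33. Among the 10 adaptors to the MAPK and PI3K branches, 1 was higher, 1 lower and 8 neither at 96 h, with a median log2 ratio of -0.09. The kinase gene Mapk3 was 32.4 FPKM at 0 h and 81.8 after 96 h, and Pik3r1, a regulatory subunit of PI3K, was 5.78 and 2.25 FPKM.

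The other LIF and Stat3 targets held 8 of the 22 changes. Of 13 genes, 6 were lower and 2 higher at 96 h than at 0 h, with a median log2 ratio of -0.84, against 33.3% of genes changed in either direction. Against 24 h, 6 of 12 were lower and 2 higher, with a median of -0.69. Tfcp2l1, a transcription factor of naive pluripotency downstream of Stat3, went from 124.3 FPKM at 0 h to 12.1 after 24 h, 2.45 after 36 h and 1.48 after 96 h. Klf4 went from 92.7 to 2.07 FPKM, Bcl3 from 93.2 to 7.12 FPKM and Klf5 from 78.1 to 11.0 FPKM. Myc was higher, with 2.53 FPKM at 0 h, 40.7 after 24 h and 7.70 after 96 h. The AP-1 subunit Junb was 8.95 and 19.2 FPKM.

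On return to serum/LIF, most targets were higher in the 48 h and 96 h cells. In the 48 h cells 8 of 12 that reached 1 FPKM were higher and none was lower, with a median log2 ratio of 1.60, and in the 96 h cells 9 of 12 were higher and 1 was lower, with a median of 1.46. In the 24 h cells 5 of 12 were higher and 1 was lower, and in the 0 h cells 4 of 13 were higher and 4 lower. Among all genes tested, 15.3% were higher and 11.5% lower at 48 h, and 12.4% and 11.2% at 96 h. At 24 h the shares were 14.9% and 10.6%, and at 0 h 12% and 10.1%. In the 96 h comparison 10 of 15 fibroblast markers were higher as well, and their part in the targets' values was not tested. Pim1, a kinase gene that Stat3 induces, was 24.9 FPKM at 48 h and 206.7 FPKM after re-seeding, and Junb 8.70 and 64.7 FPKM. Tfcp2l1 was 2.82 and 7.84 FPKM, which left it far under its 124.3 FPKM in 2i/LIF. Pim1 did not keep its direction at 96 h, where it was 70.8 FPKM before and 28.2 FPKM after re-seeding.

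With OSKM the targets divided. In the 48 h cells 2 of 12 were higher and 1 was lower, against 6.56% and 6.46% of genes tested, with Tfcp2l1 at 7.84 FPKM –dox and 31.5 FPKM +dox. In the 96 h cells 2 of 12 were higher and 5 lower, against 6.67% and 11.1%, with Tfcp2l1 at 4.11 and 22.7 FPKM and Bcl3 at 39.8 and 11.4 FPKM. In that comparison 11 of 14 fibroblast markers were lower, and their part in the 5 lower targets was not tested. Klf4 was 4.68 FPKM –dox and 14.6 FPKM +dox in the 48 h cells, a value that may hold reads of the Klf4 transgene. Myc, also an OSKM gene, was 35.9 and 18.7 FPKM. Among the 6 genes described here, none is encoded by the transgenes.

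The genes whose course over the 15 conditions was most like that of each member were found by Pearson's r on log2(FPKM + 1) among 9069 genes that reached 10 FPKM in some condition. Stat3 and Socs3 were among each other's 5 most alike, with r of 0.93 and rho of 0.92 over 15 conditions. Within the 7 timepoints r was 0.89 and within the 8 re-seeded conditions 0.92. Without the 2 of the 15 conditions whose Stat3 level lay farthest from its median it was 0.97. Within the 7 timepoints, however, r was 0.29 once the 2 farthest in Stat3 level were left out. Socs3 and Gbx2, the 2 targets, had an r of -0.02 over the 15 conditions.

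For Lifr the most alike were Epas1 (r of 0.95), Dlc1, Nr0b1, Fblim1 and Dhx40. Nr0b1 encodes an orphan nuclear receptor of pluripotent cells, and Epas1 a hypoxia-inducible factor. For Il6st they included Nkain4 (r of 0.92), Eif2ak2, Ptbp3 and Dram2, and for Jak1 they were Ext2 (r of 0.96), Lgmn, Afap1, Dctn2 and Ctnna1. For Stat3 they were Acadsb (r of 0.93), Socs3, Mfge8, Wdr20 and Slc6a8, and for Socs3 they were Fam76a (r of 0.96), Stat3, Eps15l1, Cadm4 and Mov10. For Gbx2 they were Fam175a (r of 0.91), Tfb1m, 5830415F09Rik, Haus4 and Brca2. These are the highest of 9069 coefficients over 15 values that share cells and processing, and they are given as a description.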

How the data were processed

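RNA-seq of polyadenylated RNA was analysed for 15 conditions with 2 replicates each. Per the study's methods, the authors mapped reads to mm10 with TopHat 2.0.14 and ran Cuffquant and Cuffdiff of Cufflinks 2.2.1 on Gencode transcripts of at least 200 bp from 6 biotypes. The deposited FPKM values come from Cuffdiff, which merged the replicates of a condition. The library normalization was not given in the sources used here. The table also holds the authors' calls of dynamic genes and of genes that respond to dox, which were not used. Values were compared as plain ratios without a pseudocount.

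Depth is not known as reads. Summed FPKM per condition ran from 603278 to 832607. The smallest steps between low values are a rough guide to relative depth. A 2 kb gene at 1 FPKM stood at 29.1 to 46.9 such steps over withdrawal and in cells re-seeded after 48 and 96 h, and at 85.5 to 99.3 in those re-seeded after 0 and 24 h, whose low values are thus the more finely measured.

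A gene was counted as changed at a ratio of at least 2 with the higher value at least 1 FPKM, and genes that reached 1 FPKM in either condition were the background. Lists of pathway and marker genes came from general knowledge, and the 6 genes and the lists were chosen with earlier results of these data known. Genes were named as members of these lists or, for likeness, as the 5 with the highest Pearson's r among genes that reached 10 FPKM. Some genes that this rule covers are not reported here. Alternatives changed the minimum (none or 5 FPKM), the fold (1.5 or 3), the pseudocount (1 FPKM), the scaling (TPM or median ratios) and the measure of likeness. The counting was tested on simulated data. Positions came from Gencode M21 and promoter windows from RefSeq, both on GRCm38. The software was matplotlib 3.10.9, scipy 1.17.1, pandas 2.3.3 and numpy 2.4.6 under Python 3.11.15.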

Additional observations from a re-analysis of the deposited data

Results flagged for a closer look

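For 3 of the 6 genes the ratio of +dox to –dox had opposite signs at different differentiation times, at 1.5-fold or more each way, which set them aside for a closer look. The share of all genes that meet this rule is not given here, so whether 3 of 6 is unusual is not known. The log2 ratio of Lifr was 0.64 in the 24 h cells and 2.13 in the 48 h cells, and -1.37 in the 96 h cells. That of Il6st was 0.68 in the 48 h cells and -1.36 in the 96 h cells. That of Socs3 was 1.01 in the 48 h cells and -0.68 in the 96 h cells. The difference between differentiation times was not tested, since each ratio compares 2 values that each combine both replicates. The fibroblast marker sum was 192.5 FPKM in the 96 h –dox cells, against 42.4 FPKM +dox, and its part in the 96 h ratios was not tested.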

How the results depend on the processing

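No paired analysis was possible because the deposited columns combine the replicates of a condition, and for the same reason no replicate could be left out. At a fold of 3 in place of 2, the 6 genes gave 2 lower at 96 h than at 0 h in place of 5, 6 pairs changed on return to serum/LIF in place of 11, 2 pairs changed by dox in place of 5, and 2 changed between re-seeded 0 h and 96 h –dox cells in place of 4. The pathway lists then gave 14 genes changed between 0 and 96 h in place of 22, 37 pairs on return in place of 73 and 13 pairs by dox in place of 30. At a fold of 1.5, the 6 genes gave 9 pairs changed by dox, and the lists gave 111 pairs on return and 66 by dox. With 1 FPKM added to both values, the 6 genes gave 3 pairs changed by dox and the lists 19. The shares of all genes at these other folds and with 1 FPKM added are not given here, so these counts have no background beside them. Leaving out the 0 h and 96 h –dox conditions, an alternative chosen after seeing the data, left 5 of 12 pairs on return and 3 of 18 by dox for the 6 genes, and 33 of 103 and 15 of 159 for the lists, against 26.1% and 9.5% of all pairs. Under other minimums and both scalings, the counts for the whole withdrawal, for 96 h against 0 h, for re-seeded 96 h against 0 h cells and for all pairs on return and by dox, over both directions, stayed within 1.5 times of those reported. Counts at single steps or hours moved further under the common sum, as the ratios below show. Rescaling to a common sum shifted the log2 ratio of 96 h to 0 h of every gene by 0.27 and that of +dox to –dox at 0 h by -0.23. Under it, of 114 ratios of the 6 genes, 4 dropped below 2-fold, 2 passed it and 2 near 0 changed sign, both of them Stat3, to 0.22 for the return of 0 h cells and -0.02 for dox in 24 h cells. The 4 were Il6st from 0 to 24 h at -0.90, Stat3 from 24 to 96 h at -0.89, Gbx2 on return of 24 h cells at -0.99 and Socs3 with dox in 48 h cells at 0.92. The 2 that passed it were Il6st and Socs3 from 60 to 72 h, at 1.02 and 1.01. The ratio of highest to lowest value of Jak1 over withdrawal, which is not among the 114, passed it as well. With 1 FPKM added, 6 ratios dropped below 2-fold, among them Il6st from 24 to 36 h at -0.93, Lifr on return of 48 h cells at -0.90 and Lifr with dox in 96 h cells at -0.996. Likeness depended on the measure, since of the 5 genes most like Jak1 and Gbx2 by Pearson's r over 15 conditions none was among the 5 over the 7 timepoints. Low values such as Gbx2 at 1.14 FPKM are the least certain, and the number of reads behind any value is not known.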

Other observations

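The protein kinase gene Akt1, on the PI3K branch of the pathway and among the adaptors counted above, was between 10.9 and 37.3 FPKM over withdrawal and stood at 127.2 FPKM in the 96 h –dox cells and 62.7 FPKM in the 96 h +dox cells. Ptpn6, a phosphatase that acts on Jak kinases and 1 of the inhibitors counted above, was 44.5 FPKM in the 96 h –dox cells and between 11.1 and 31.9 FPKM in every other condition. The fibroblast sums were 192.5 FPKM in the 96 h –dox cells and 42.4 FPKM in the 96 h +dox cells, and their part in these values was not tested. The formative pluripotency markers summed to 53.3 FPKM at 0 h, 867.0 after 48 h and 215.1 after 96 h of withdrawal, so their highest sum fell where Socs3 was at 6.07 FPKM. After re-seeding –dox the sum was 137.7, 276.5, 187.0 and 60.3 FPKM for cells differentiated for 0, 24, 48 and 96 h. The neurectoderm markers summed to 8.34 FPKM at 0 h and 32.9 after 96 h, and the mesoderm and endoderm markers to 17.7 and 5.90 FPKM. At 24 h, in place of the 0 h cells with their high fibroblast sum, these sums were 9.41 and 2.84 FPKM, so both sums were higher at 96 h than at 24 h. Single markers did not all follow. Of the neurectoderm markers that reached 1 FPKM in that comparison, 3 of 4 were higher and 1 was lower. Of the mesoderm and endoderm markers, 1 of 3 was higher and 1 lower, against 20.5% higher and 16.3% lower among genes tested.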
